A study of Mus musculus with 265 samples.

Results

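Foxo factors and the phosphoinositide 3-kinase (PI3K) pathway were followed in the accessible chromatin of single mouse pre-B cells through 9 genes, Foxo1, Foxo3, Foxo4, Foxp1, Inpp5d, Pik3cd, Pik3r1, Pik3ip1 and Akt1. A region of the single-cell ATAC-seq matrix was taken for a gene when the nearest protein-coding start site, on mm10 with GENCODE vM21, was that of the gene and lay within 50 kb. This gave 32 of the 20103 regions: 7 for Inpp5d, 5 each for Pik3cd and Pik3ip1, 4 each for Foxp1 and Pik3r1, 3 for Foxo3, 2 for Akt1 and 1 each for Foxo1 and Foxo4. The cells were B3 cells, a mouse pre-B line that carries ERt2-Ikaros, a fusion of the zinc-finger factor Ikaros with an estrogen receptor domain that lets 4-hydroxytamoxifen send it to the nucleus. Cells were taken before the drug (0-hour) and 24 hours after its addition (24-hour), in 2 Fluidigm C1 runs per time-point, and both time-points carry the same fusion protein. There was no line without the fusion and no time-matched untreated group, so 4-hydroxytamoxifen itself, time in culture and nuclear Ikaros cannot be told apart. The matrix holds 48 and 47 cells of the 0-hour runs and 60 and 72 cells of the 24-hour runs, where the labels list 48, 63, 75 and 73. Neither labels nor methods say whether runs were separate cultures, so the p-values measure only the spread between these runs.

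In B-lineage cells, class I PI3K, made of a catalytic subunit such as p110δ and a regulatory subunit such as p85α, produces the lipid PIP3 downstream of the pre-B cell receptor and of cytokine receptors. PIP3 recruits the kinase Akt, and Akt phosphorylates Foxo factors, which then leave the nucleus and lose contact with their target genes. Foxo1 drives genes that pre-B cells need, among them the Rag genes and Il7r, so the balance of kinases, phosphatases and Foxo factors bears on pre-B cell growth and differentiation.

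The regions on which the results turn are shown first, with the stretch outside annotated untranslated regions. All are the plus strand of mm10, 5′ to 3′, in lower case. Capitals mark the Ikaros core letters GGGAA and the 7-letter forkhead match TGTTTAC, on either strand (TTCCC and GTAAACA in the printed strand). The first 3 lie near the starts of Foxo3, Foxo1 and Pik3ip1. The region upstream of Foxo3 is the most often detected of all 32, that of Foxo1 is the only one of its gene, and that of Pik3ip1 lies immediately upstream of a shorter transcript and is printed up to the end of its forkhead match, of which the last 3 bases are transcribed. The next 3 are the regions of Inpp5d, Pik3cd and Akt1 with the lowest unadjusted p, and the last carries the other forkhead match.
Foxo3, 1011 bp upstream of the start, chr10:42277698-42277835: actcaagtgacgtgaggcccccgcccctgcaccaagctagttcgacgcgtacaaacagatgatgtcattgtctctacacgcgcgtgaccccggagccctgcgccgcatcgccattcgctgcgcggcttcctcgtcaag
Foxo1, upstream part of the region at the start, chr3:52268236-52268335: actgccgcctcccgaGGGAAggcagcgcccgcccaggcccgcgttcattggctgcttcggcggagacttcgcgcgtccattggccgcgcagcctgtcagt
Pik3ip1, upstream part of the region 2028 bp into the gene, chr11:3332356-3332453: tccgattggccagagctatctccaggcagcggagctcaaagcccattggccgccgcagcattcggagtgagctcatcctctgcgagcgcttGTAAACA
Inpp5d, intron, 1728 bp into the gene, chr1:87621989-87622091: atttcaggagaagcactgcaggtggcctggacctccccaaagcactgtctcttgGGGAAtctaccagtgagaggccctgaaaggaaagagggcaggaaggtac
Pik3cd, intron, 5818 bp into the gene, chr4:149696701-149696806: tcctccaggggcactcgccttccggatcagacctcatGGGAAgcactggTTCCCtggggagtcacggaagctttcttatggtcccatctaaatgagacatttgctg
Akt1, 574 bp upstream of the start, chr12:112675352-112675564: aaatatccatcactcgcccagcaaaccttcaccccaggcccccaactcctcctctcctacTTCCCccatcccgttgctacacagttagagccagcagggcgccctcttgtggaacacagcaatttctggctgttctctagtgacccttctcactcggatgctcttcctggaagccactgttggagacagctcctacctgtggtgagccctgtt
Foxp1, intron, 3484 bp into the gene, chr6:99519179-99519296: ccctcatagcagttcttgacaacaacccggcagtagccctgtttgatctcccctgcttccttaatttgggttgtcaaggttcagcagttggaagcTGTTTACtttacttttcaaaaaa

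The position of the regions was described first. Of the 32 regions, 12 (37.5%) lay within 1 kb of the start site of their gene, against 43.7% of all regions. The other 20 lay in introns, in exons or between genes, at up to 48.5 kb in Pik3r1. A region was detected, with a value above 0, in a median of 14 of the 227 cells, between 5 cells for the least and 60 for the most often detected region, against a median of 13 over the matrix. Each of the 32 regions had 1 copy in the genome and no mitochondrial match. The region 16.8 kb past the Pik3ip1 start lies in an intron of Limk2, and the Foxp1 regions also lie in the overlapping gene model Gm20696.

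Depth differed between runs and moved with the number of regions seen. The runs summed to 92639 to 164357 counts, and the median cell held 2898 counts in 0-hour run 1 and 1676 to 1839.5 in the other three. Cells of 0-hour run 1 had signal in a mean of 4.04 of the 32 regions, those of 0-hour run 2 in 2.19, those of 24-hour run 1 in 1.68 and those of 24-hour run 2 in 1.82. When each cell was thinned to 837 counts, with 23 shallower cells left out, the means were 1.21, 1.13, 0.865 and 1.00. Thinning brought the runs close together, with the 0-hour means still the higher ones. As a share of all counts, the 32 regions held 0.180% and 0.167% at 0 hours, by run, and 0.127% and 0.139% at 24 hours. No 2 cells held identical values. In these sparse data a cell without signal in a region cannot be called closed there.

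**Figure D1:**
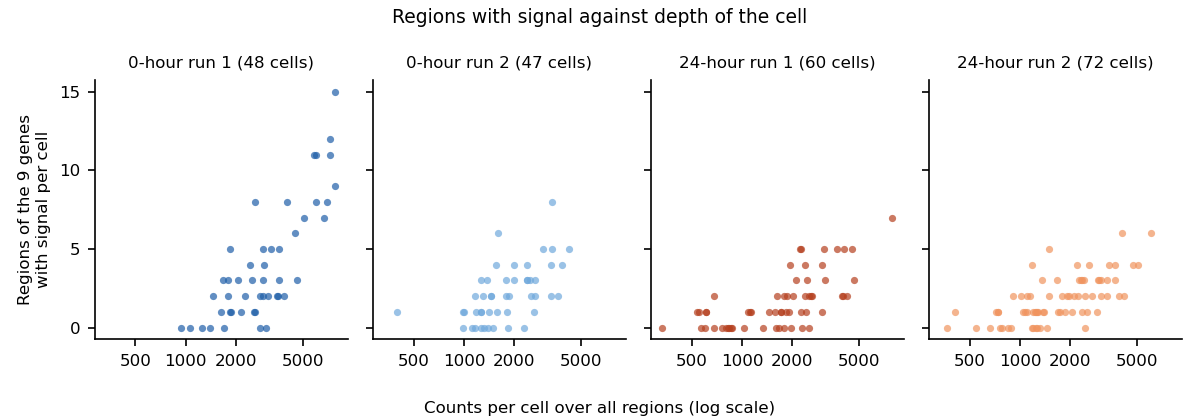
Number of the 32 regions with signal in a cell (vertical axis) against the counts of the cell over all regions (horizontal axis, log scale), with 1 point per cell and 1 panel per C1 run. Deeper cells had more regions with signal in each run, up to 15 regions in 0-hour run 1 and up to 6 in 24-hour run 2.

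The cell type of the line was checked against marker genes. Of 14 pre-B markers 12 had at least 1 region, and Rag1 and Cd22 had none. Regions of Pax5, the factor that fixes B-lineage identity, had signal in 68.8% and 40.4% of the 0-hour cells and in 53.3% and 47.2% of the 24-hour cells, by run. Over the 12 genes 7 had a log2 change below 0 (48.0% of all genes) and 0 passed the adjusted threshold (0.536% of all genes). At an unadjusted p under 0.05 2 were lower (6.18% of all genes), Igll1 (45.8% and 27.7% at 0 hours, 8.33% and 9.72% at 24 hours, log2 change -1.75) and Il7r. The summed level of the pre-B markers lay between 2187 and 2297 CPM (counts scaled by TMM-normalized library size) at 0 hours and between 1751 and 2344 CPM at 24 hours. T-cell markers had regions for 2 of 8 genes (33.1 to 74.1 CPM at 0 hours, 34.9 to 71.0 CPM at 24 hours), with none for Cd3e, Cd4 or Cd8a. Myeloid markers had regions for 2 of 8 (24.7 to 44.2 CPM and 23.7 to 41.9 CPM), with none for Csf1r, Itgam or Mpo. Erythroid markers had regions for 2 of 7, Tfrc and Klf1 (161 to 177 CPM and 221 to 265 CPM), with none for Gata1 or the globin genes.

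Between 0 and 24 hours, 0 of the 32 regions passed an adjusted p of 0.05 in edgeR's quasi-likelihood test on the counts summed per run, where 0.0547% of all regions did. At an unadjusted p under 0.05, 3 regions were lower at 24 hours, against 7% of all regions, and 1 was higher, against 5.11%. DESeq2 called 0% of all regions, so its 0 of 32 says nothing of these, and at an unadjusted p under 0.05 it had 1 of the 32 lower (3.15% of all regions) and 0 higher (2.25%). With each run left out in turn, the log2 change stayed within 1.5 times its value for 3 of the 32 regions, Inpp5d +1728, Akt1 -574 and Foxo1 -27, moved further for 19 and changed sign for 10. As a description, the log2 change (24 hours minus 0 hours, on normalized counts) was below 0 in 24 of 32 regions with a median of -0.85, where it was below 0 in 52.0% of all regions with a median of -0.06. Leaving out 24-hour run 2 gave medians of -0.55 for these and -0.09 for all regions. Leaving out 24-hour run 1 gave -0.98 against -0.26, and leaving out 0-hour run 1 gave -0.62 against 0.13. The difference between near and far regions was also seen over the matrix. Within 1 kb of a start the median was -0.27 for these genes and 0.33 for all regions, and beyond 1 kb it was -1.15 for these genes and -0.54 for all regions. One run decided the sign of the former, which was 0.11 without 24-hour run 2, -0.03 without 0-hour run 1 and -0.61 when 24-hour run 1 was dropped. Beyond 1 kb the median for these genes was -0.74 with 0-hour run 1 left out and -0.75 with 24-hour run 2 left out.

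**Figure D2:**
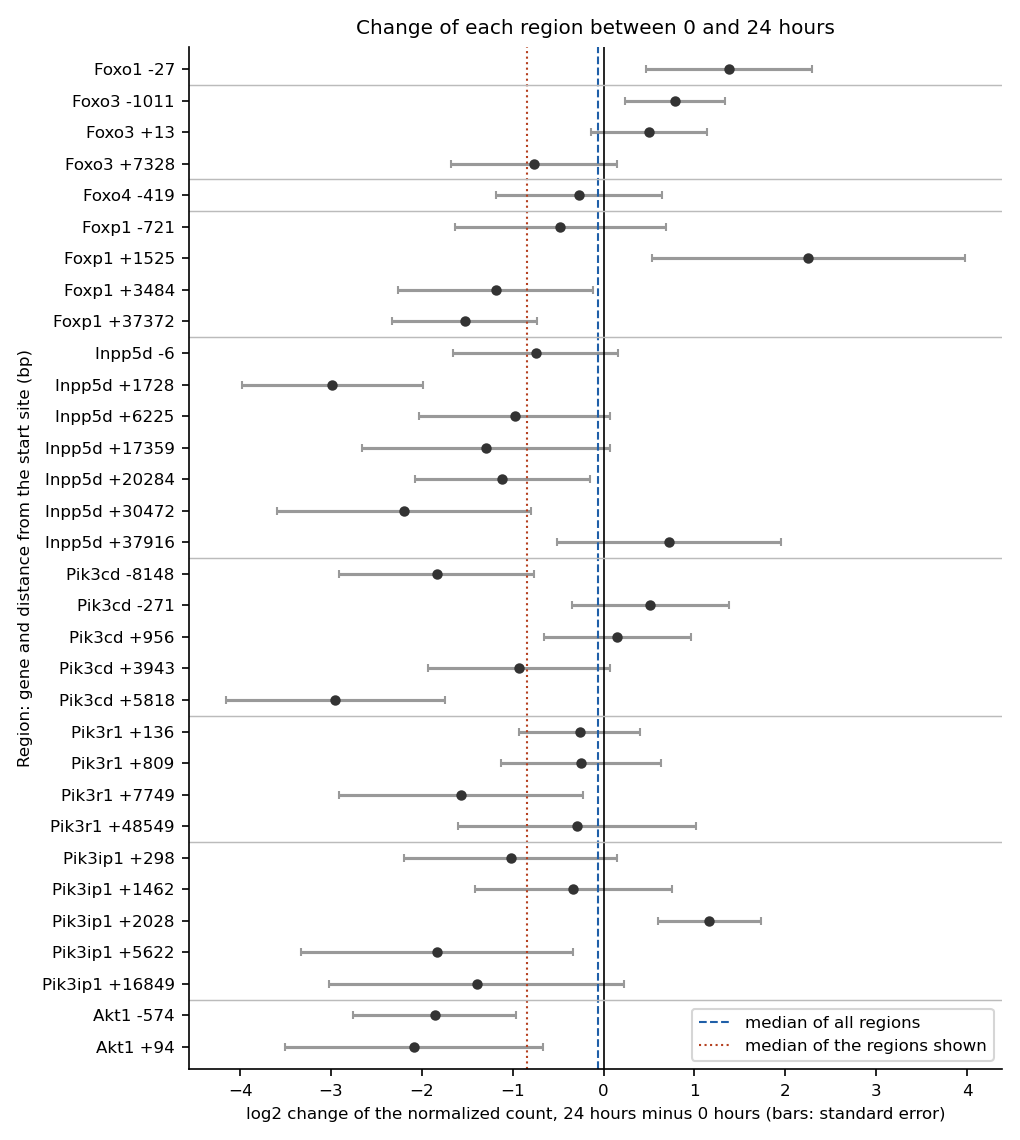
log2 change of the normalized count between 0 and 24 hours (horizontal axis, points) with its standard error (bars) for each of the 32 regions (vertical axis, gene and distance from the start site). The dashed line is the median of all regions (-0.06) and the dotted line that of the regions shown (-0.85), and most of the Inpp5d, Pik3r1, Pik3ip1 and Akt1 points lie left of 0.

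The regions were then grouped by the role of their gene. The 23 regions of the PI3K signalling genes (Inpp5d, Pik3cd, Pik3r1, Pik3ip1 and Akt1) had a log2 change below 0 in 19 cases, with a median of -1.02. The 5 regions of Foxo1, Foxo3 and Foxo4 had it above 0 in 3 cases, with a median of 0.50, which became 0.25 without 24-hour run 2, 0.84 without 0-hour run 1 and -0.0058 when runs were scaled by their number of cells. The 4 regions of Foxp1, the other forkhead factor, had it below 0 in 3 cases, with a median of -0.83, or -0.18 without 0-hour run 1 and -0.31 when 24-hour run 2 was left out. These counts were read off after the values were seen. The roles also differed in the share of their regions within 1 kb of a start, and the difference between the roles was not tested. Counted by the share of cells with signal, 13 regions had both 0-hour shares above those of the 24-hour runs, against 33.7% of all regions, and 2 had both 24-hour shares on top, against 8.59%. With 1 run fewer to separate, the 13 became 23 without 0-hour run 2 (63.1% of all regions), or 22 when 24-hour run 1 was dropped (51.1%). The 2 became 6 when 0-hour run 1 was left out (31.3% of all regions) and 4 when either 24-hour run was (18.3% for run 1 and 19.9% for run 2). After thinning the counts were 9 (26.5% of all regions) and 4 (17.4%), so the shares of these regions, 28.1% and 12.5%, were near those of the matrix.

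**Figure D3:**
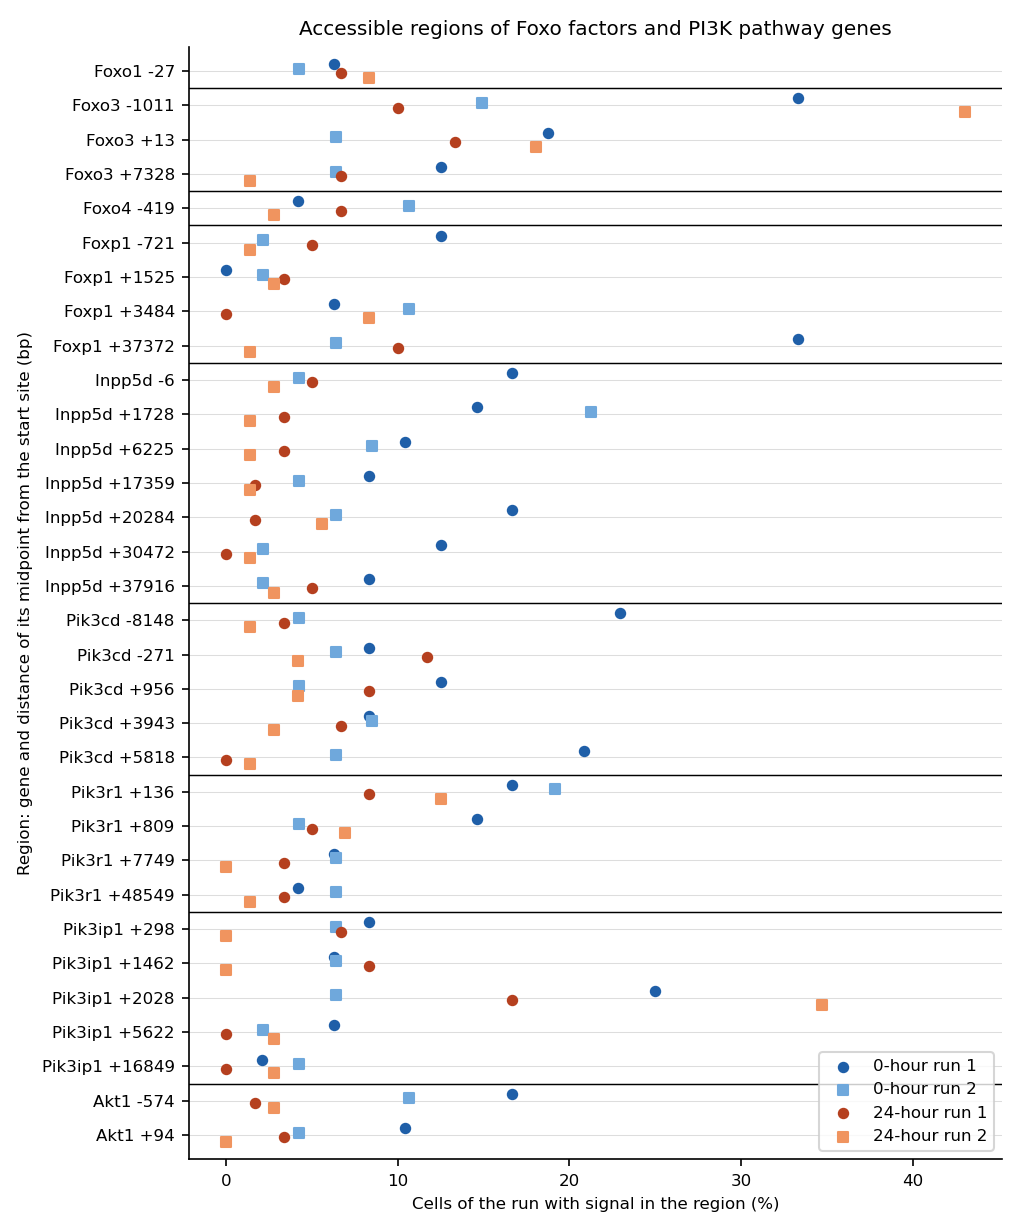
Share of the cells of each C1 run with signal (horizontal axis, percent) in each of the 32 regions (vertical axis, gene and distance of the midpoint from the start site), with 1 marker per run. Foxo3 -1011 reached 43.1% in 24-hour run 2, and at Inpp5d +1728 the 0-hour runs (14.6% and 21.3%) lay above the 24-hour runs (3.33% and 1.39%).

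Foxo3 encodes a Foxo factor with functions that overlap those of Foxo1. Its region 1011 bp upstream had signal in 33.3% of the cells of 0-hour run 1 (exact Clopper-Pearson 95% interval 20.4 to 48.4%), 14.9% of 0-hour run 2 (6.20 to 28.3%), 10.0% of 24-hour run 1 (3.76 to 20.5%) and 43.1% of 24-hour run 2 (31.4 to 55.3%). The runs of the same time-point were thus further apart than the time-points, and the intervals of the 24-hour runs did not overlap. The summed counts were 23, 10, 10 and 47, with a log2 change of 0.79 (SE 0.55, adjusted p = 0.606). Without 24-hour run 2 the log2 change was -0.62, and without 24-hour run 1 it was 1.46. After thinning, the expected shares were 9.27%, 7.51%, 6.28% and 24.9%, with 24-hour run 2 the highest. Thinning matches only the counts per cell, and the cause of the difference between runs was not tested. At the region on the start site itself (chr10:42276677-42276808) the shares were 18.8%, 6.38%, 13.3% and 18.1%, with a log2 change of 0.50 (SE 0.64), or -0.0058 when runs were scaled by their number of cells. Its thinned shares were 5.56%, 5.50%, 5.57% and 8.47%, with the 24-hour values the higher ones, in 24-hour run 1 hardly so. An intronic region 7328 bp into the gene had 12.5%, 6.38%, 6.67% and 1.39%, with a log2 change of -0.76 (SE 0.91), and its time-points overlapped.

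The regions of other genes whose 4 run shares were closest to those of this upstream region of Foxo3 lay at the starts of Slc25a25, Yipf5 and Colgalt1, at Euclidean distances of 4.47, 7.08 and 7.16 percentage points. At Slc25a25 the shares were 35.4%, 12.8%, 13.3% and 43.1%. Since these regions were picked for closeness to the same shares, a like order of the runs was given by the choice. The likeness is over 4 runs and was drawn from all regions outside the set.

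Foxo1, the Foxo factor with the clearest role in early B cells, had 1 region, across its start site. It was detected in 6.25% (1.31 to 17.2%) and 4.26% (0.520 to 14.5%) of 0-hour cells and in 6.67% (1.85 to 16.2%) and 8.33% (3.12 to 17.3%) of 24-hour cells. Both 24-hour runs were above both 0-hour runs, by less than the width of any of these intervals. The summed counts were 4, 3, 7 and 12, and the log2 change of 1.38 (SE 0.91) did not pass the test (adjusted p = 0.580). Thinned shares were 1.55%, 2.76%, 4.14% and 5.14%, in the same order of time-points. Foxo4, the X-linked member of the family, had 1 region 419 bp upstream of its start, with signal in 4.17% and 10.6% of 0-hour cells and 6.67% and 2.78% of 24-hour cells. Its runs overlapped, and the log2 change was -0.27 (SE 0.91).

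Foxp1, a forkhead factor of another subfamily that early B cells also require, had 4 regions. The most often detected lay in an intron 37.4 kb into the gene, with signal in 33.3% (20.4 to 48.4%) and 6.38% (1.34 to 17.5%) of 0-hour cells and 10.0% (3.76 to 20.5%) and 1.39% (0.0352 to 7.50%) of 24-hour cells. Here 0-hour run 1 stood above the other three, 0-hour run 2 lay below 24-hour run 1, and the log2 change was -1.53 (SE 0.80, adjusted p = 0.444). The log2 change was -0.54 without 0-hour run 1, -0.89 without 24-hour run 2 and -2.77 without 24-hour run 1. The region with the forkhead match, 3484 bp into the gene, had 6.25%, 10.6%, 0% and 8.33%. The 0 of 60 cells in 24-hour run 1 allow a share of up to 5% if a count of 0 allows 3 counts, or 5.96% by the exact interval. Both limits cover counting error only, and the runs overlapped. The other 2 regions, upstream of the start and 1525 bp into the gene, were detected in 11 and 5 cells in all. The latter, 34 bp upstream of another Foxp1 transcript start, had the highest log2 change of the 32, 2.25 (SE 1.73), on shares of 0%, 2.13%, 3.33% and 2.78%. Without 0-hour run 1 it was 1.09, below the 1.92 of Pik3ip1 +2028, and 0-hour run 1 held no count.

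Inpp5d encodes SHIP1, the phosphatase that removes the 5-phosphate of PIP3. Its region 1728 bp into the gene, in an intron, had signal in 14.6% (6.07 to 27.8%) and 21.3% (10.7 to 35.7%) of 0-hour cells and in 3.33% (0.406 to 11.5%) and 1.39% (0.0352 to 7.50%) of 24-hour cells. The 0-hour runs lay above the 24-hour runs, also after thinning (3.92% and 9.97% against 2.81% and 0.456%). The counts were 11 and 13 at 0 hours and 2 and 1 at 24 hours, a log2 change of -2.99 (SE 1.00). This was the lowest p of the 32 regions, 0.00408, and did not pass the adjustment over all regions (adjusted p = 0.210). Over the alternatives with all runs, the log2 change lay between -3.34 and -2.40 and the adjusted p between 0.172 and 0.847. Of the other 6 Inpp5d regions, 5 had a log2 change below 0, from -2.20 (SE 1.40) at 30.5 kb to -0.75 (SE 0.91) at the start site, and the one farthest into the gene, at 37.9 kb, had 0.72 (SE 1.23). At 4 of these 6 the 0-hour shares were the higher ones (33.7% of all regions), at 20.3 kb only before thinning, and none of the 6 was detected in more than 16 cells.

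Pik3cd encodes p110δ, the catalytic PI3K subunit that is most abundant in lymphocytes. In its intronic region 5818 bp from the start, 20.8% (10.5 to 35.0%) and 6.38% (1.34 to 17.5%) of 0-hour cells had signal, against 0 of 60 cells and 1.39% (0.0352 to 7.50%) at 24 hours. The 0-hour runs were above the 24-hour runs, and the interval of 0-hour run 2 overlapped those of both. The log2 change was -2.95 (SE 1.20, adjusted p = 0.303), between -3.34 and -2.11 with a run left out other than 24-hour run 2, without which the remaining 24-hour run held no count. A region 8.15 kb upstream had 22.9%, 4.26%, 3.33% and 1.39%, with a log2 change of -1.84 (SE 1.08). The 2 regions closest to the start, 271 bp upstream and 956 bp into the gene, had log2 changes of 0.52 (SE 0.87) and 0.15 (SE 0.81), with overlapping runs. The fifth, 3943 bp into the gene and 23 bp upstream of another transcript start, had -0.93 (SE 1.00).

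Pik3r1 encodes p85α and shorter regulatory subunits. Its region 136 bp past the start site was the most often detected of its regions, in 16.7% (7.48 to 30.2%) and 19.1% (9.15 to 33.3%) of 0-hour cells and 8.33% (2.76 to 18.4%) and 12.5% (5.88 to 22.4%) of 24-hour cells. The 0-hour runs were above the 24-hour runs and all 4 intervals overlapped. After thinning the shares were 5.45%, 8.69%, 3.97% and 6.94%, where the time-points overlapped, and the log2 change was -0.26 (SE 0.67). The other 3 Pik3r1 regions had log2 changes of -0.25 (SE 0.88), -1.57 (SE 1.34) and -0.29 (SE 1.31).

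Pik3ip1 encodes a membrane protein that restrains the catalytic subunit of PI3K. Its region 2028 bp into the gene, 22 bp upstream of the start of a shorter transcript, had signal in 25.0% (13.6 to 39.6%) and 6.38% (1.34 to 17.5%) of 0-hour cells and in 16.7% (8.29 to 28.5%) and 34.7% (23.9 to 46.9%) of 24-hour cells. The runs overlapped because 0-hour run 1 exceeded 24-hour run 1. After thinning (7.09%, 3.89%, 9.56% and 20.0%) both 24-hour runs were above both 0-hour runs. The log2 change was 1.16 (SE 0.57) with an unadjusted p of 0.0443 and an adjusted p of 0.390, and it lay between 0.53 (without 24-hour run 2) and 1.92 (without 0-hour run 1) with a run left out. The other 4 Pik3ip1 regions, each detected in 5 to 11 cells, had log2 changes between -1.83 and -0.33, and 24-hour run 1 or run 2 was at 0 in each.

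Akt1 encodes the kinase that phosphorylates Foxo factors. Its upstream region had signal in 16.7% (7.48 to 30.2%) and 10.6% (3.55 to 23.1%) of 0-hour cells and in 1.67% (0.0422 to 8.94%) and 2.78% (0.338 to 9.68%) of 24-hour cells. The 0-hour runs were above the 24-hour runs, also after thinning (4.27% and 6.10% against 1.20% and 1.01%). The log2 change was -1.86 (SE 0.90, adjusted p = 0.387). The region at the start, in the untranslated part of the first exon, had 10.4%, 4.26%, 3.33% and 0%, with a log2 change of -2.09 (SE 1.42), and its 0-hour runs were again above the 24-hour runs. Without 24-hour run 2, which held no count, the log2 change was -1.14.

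Summed over all regions of a gene, 0 of the 9 genes passed an adjusted p of 0.05, where 0.536% of the 9894 genes with a region did. At an unadjusted p under 0.05, 2 genes were lower at 24 hours (6.18% of all genes) and 0 were higher (5.99% of all genes). They were Inpp5d and Akt1, and DESeq2, which called 0% of all genes, had 2 of the 9 lower at an unadjusted p under 0.05 (3.31% of all genes) and 0 higher (2.35%). The Inpp5d regions held 383 and 331 CPM at 0 hours and 150 and 133 CPM at 24 hours, a log2 change of -1.34 (SE 0.43, p = 0.0019 and adjusted p = 0.120 in edgeR). The log2 change lay between -1.75 and -1.29 over the alternatives with all runs and between -1.47 and -1.23 with a run left out, and only without 24-hour run 1 did it pass the threshold (adjusted p = 0.0359), in a fit that called 5.36% of all genes. In the latter fit 24-hour run 2 was alone in its group and its spread was taken from the 0-hour runs. The Akt1 regions held 130 and 122 CPM at 0 hours and 31.6 and 27.9 CPM at 24 hours, a log2 change of -2.05 (SE 0.76, adjusted p = 0.198).

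The other gene sums had smaller changes for their error. Foxp1 had a log2 change of -0.99 (SE 0.52, adjusted p = 0.439), Pik3cd -0.75 (SE 0.44), Pik3r1 -0.54 (SE 0.47), Foxo4 -0.37 (SE 0.87), Pik3ip1 0.16 (SE 0.42), Foxo3 0.36 (SE 0.39) and Foxo1 1.28 (SE 0.90, adjusted p = 0.600), and scaling by the number of cells turned those of Pik3ip1 and Foxo3 to -0.23 and -0.061 while it moved the median of all genes to -0.33. A change as large as the -1.34 of Inpp5d, itself not called with all runs, lay within 2 SE of the values of Foxp1, Pik3cd, Pik3r1 and Foxo4. For these the lack of a call does not show equal accessibility.

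By the share of cells with signal in any region of a gene, the 0-hour runs were above the 24-hour runs for 5 of 9 genes, where 28.0% of all genes had this order, and the 24-hour runs above the 0-hour runs for 1 (9.04% of all genes). The 5 were Akt1, Foxp1, Inpp5d, Pik3cd and Pik3r1, and the 1 was Foxo1. The 9 genes were detected in a median of 55 cells, against 24 for all genes, so the shares over all genes are not of genes detected alike. For Inpp5d the shares were 50.0% (35.2 to 64.8%) and 34.0% (20.9 to 49.3%) at 0 hours and 18.3% (9.52 to 30.4%) and 15.3% (7.88 to 25.7%) at 24 hours. For Akt1 they were 20.8% and 14.9% at 0 hours and 5% and 2.78% at 24 hours. After thinning, 4 genes had the 0-hour runs above (20.9% of all genes), Pik3r1 having dropped out, and 2 had the 24-hour runs above (21.9% of all genes), Foxo1 and Pik3ip1. A share over any region depends on how many regions a gene has, here 1 to 7, so it was compared between runs of a gene and not between genes.

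**Figure D4:**
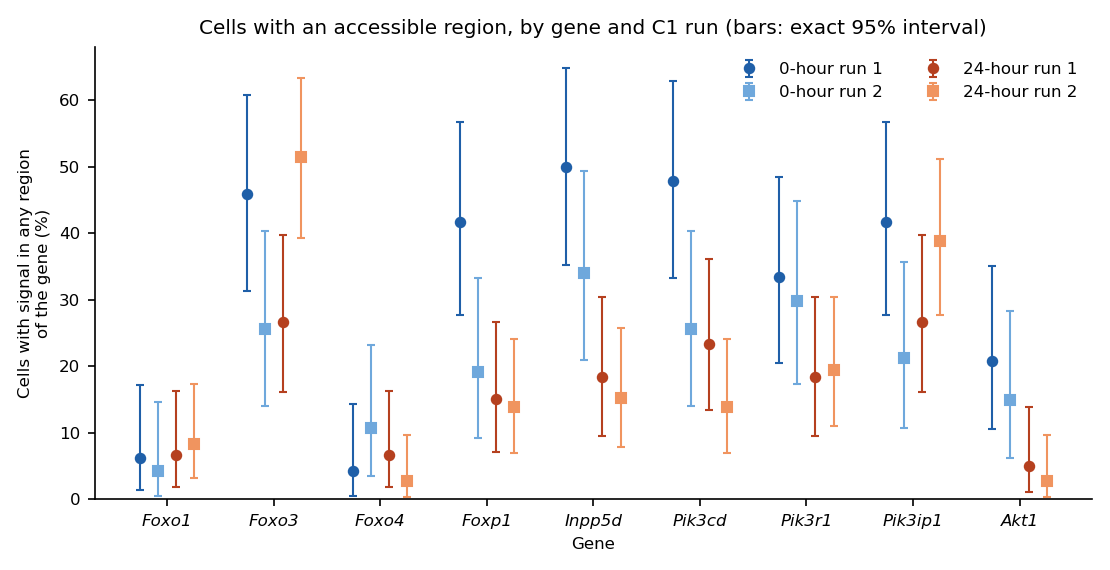
Share of the cells of each C1 run with signal in any region of the gene (vertical axis, percent) for the 9 genes (horizontal axis), with exact 95% binomial intervals as bars, which cover counting error only. Inpp5d and Akt1 had both 0-hour runs (34.0% to 50.0% and 14.9% to 20.8%) above both 24-hour runs (15.3% to 18.3% and 2.78% to 5%), and Foxo3 was highest in 24-hour run 2 (51.4%).

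Several of these genes have further promoters far inside the gene, which the distance to the first start site misses. When the starts of all protein-coding transcripts were used, 12 regions were added, 5 for Pik3r1, 4 for Foxp1, 2 for Pik3cd and 1 for Foxo3, and the region in the Limk2 intron left Pik3ip1, for 43 in all. The log2 change was below 0 in all 12 added regions, between -3.48 and -0.14 with a median of -1.43, and 0 passed the adjusted threshold (0.0547% of all regions). Over all regions beyond 1 kb of a start the log2 change was below 0 in 64.8%. By share of cells, 7 of the 12 had the 0-hour runs on top (33.7% of all regions) and 0 the reverse (8.59%). At the promoter of the short Pik3r1 transcripts, 73.6 kb from the first start, a region 63 bp upstream of a transcript start had signal in 16.7%, 6.38%, 8.33% and 1.39% of cells. A second one 467 bp past it had 16.7%, 6.38%, 5% and 0%, with a log2 change of -1.82 (SE 1.01, adjusted p = 0.483). With the added regions the summed log2 change of Pik3r1 was -0.95 (adjusted p = 0.244), that of Pik3cd -0.95 (adjusted p = 0.310) and that of Foxp1 -1.10 (adjusted p = 0.215), each further below 0 than with the first start alone. That of Foxo3 moved from 0.36 to 0.16 and that of Pik3ip1 from 0.16 to 0.29.

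**Figure D5:**
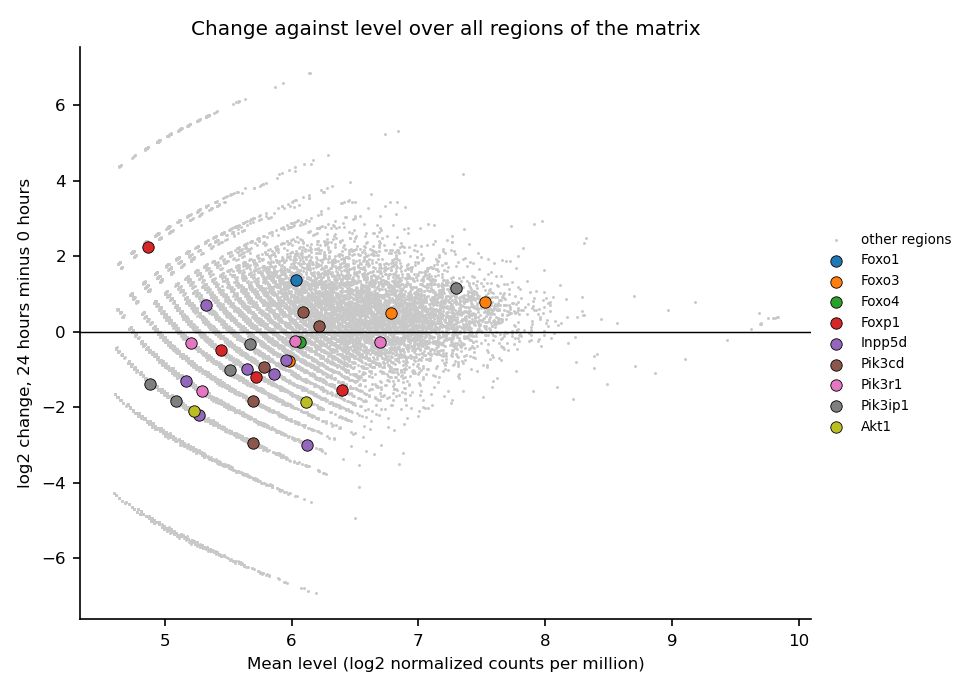
log2 change between 0 and 24 hours (vertical axis) against the mean level (horizontal axis, log2 of the normalized CPM) for all 20103 regions, with the 32 regions coloured by gene. Foxo3 -1011 (0.79) and Pik3ip1 +2028 (1.16) are the coloured points furthest right and lie above 0, and most coloured points at lower levels lie below 0, where the grey points spread widely.

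Sequence features of the 32 regions were set beside those of other regions of their width. The Ikaros core GGGAA was found on either strand in 13 of 32 regions (40.6%), against 35.0% of the regions within 10 bp of the same width. Of the printed regions, those of Inpp5d, Pik3cd, Akt1 and Foxo1 held it, and those of Foxo3, Pik3ip1 and Foxp1 did not. The printed regions are a picked part of the 32, and how the core goes with the direction of change was not tested. The forkhead letters TGTTTAC were in 2 regions (6.25% against 1.10%), of Foxp1 and Pik3ip1 as printed, and the shorter TGTTT, which the longer word contains, was in 12 (37.5% against 22.2%). The ETS core GGAAG, which overlaps GGGAA in the word GGGAAG, was in 20 (62.5% against 52.6%). The E2A box CAGGTG was in 3 (9.38% against 8.13%) and CACGTG in 0 (against 4.27%). With 32 regions, 2 matches are a description of these sequences and not evidence of binding. The median GC content of the regions within 1 kb of a start was 60.1%, from 54.4% to 78.2%, against 65.7% for all such regions, and beyond 1 kb it was 54.6% against 53.4%.

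The wider pathway was read from a list of 59 other genes of PI3K, Akt, TOR and Foxo regulation, of which 48 had a region. Of these 0 passed the adjusted threshold in edgeR, which 0.536% of all genes did, and DESeq2 called 0 genes in all. At an unadjusted p under 0.05 in edgeR, 3 of the 48 were lower (6.18% of all genes) and 2 higher (5.99%) at 24 hours, shares near those of the background. The median log2 change of the list was -0.05, against 0.05 for all genes. The 5 most often detected were Gsk3b, Pik3ap1, Phlpp1, Ywhaz and Tbc1d7. Regions of Gsk3b, a kinase that Akt inhibits, had signal in 41.7%, 29.8%, 45.0% and 41.7% of cells in the order of the runs, with a log2 change of 0.64 (SE 0.38, adjusted p = 0.520). Pik3ap1, which encodes the B-cell adaptor that brings PI3K to the receptor, had 52.1%, 48.9%, 28.3% and 13.9%, and a log2 change of -1.14 (SE 0.39, adjusted p = 0.153). The 0-hour shares were the higher ones, but the normalized levels overlapped, at 321 and 652 CPM against 332 and 105 CPM. Phlpp1, a phosphatase of Akt, had a log2 change of 0.55 (SE 0.43), Ywhaz, a 14-3-3 protein that binds phosphorylated Foxo factors, -0.01 (SE 0.43), and Tbc1d7, a subunit of the TSC complex, -0.24 (SE 0.45). The genes at an unadjusted p under 0.05, named after their values were seen, were Pik3ap1, Stk3 and Deptor (lower) and Rps6kb1 and Ywhae (higher). Ywhae had signal in 0 of the cells of both 0-hour runs and in 1.67% and 8.33% of the 24-hour cells.

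Known or proposed targets of Foxo factors formed a second list of 30 genes, of which 26 had a region and Rag1 had none. Again 0 passed the adjusted threshold, which 0.536% of all genes did, and at an unadjusted p under 0.05 4 of the 26 were lower (6.18% of all genes) and 1 higher (5.99%). The median log2 change was -0.04, with 13 genes below 0 and 13 above. The 5 most often detected were Sesn2, Ccng2, Ebf1, Gadd45a and Bcl2l11, with log2 changes of 0.43 (SE 0.40), 0.27 (SE 0.44), 0.25 (SE 0.41), -0.18 (SE 0.41) and 1.35 (SE 0.50). Bcl2l11, which encodes the pro-apoptotic protein Bim, had signal in 22.9%, 12.8%, 20.0% and 40.3% of cells and did not pass the adjustment (adjusted p = 0.204). Its shares overlapped, since 0-hour run 1 exceeded 24-hour run 1, but its normalized levels did not, at 98.8 and 99.4 CPM against 126 and 377 CPM. The 4 at a low unadjusted p in the other direction, also named after their values were seen, were Pmaip1, Ikzf1, Txnip and Il7r. Il7r, which encodes the receptor chain for interleukin-7, had 16.7% and 8.51% at 0 hours and 1.67% and 1.39% at 24 hours (log2 change -2.79, SE 1.02, adjusted p = 0.190).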

How the data were processed

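Single cells of the B3 line were profiled by single-cell ATAC-seq on the Fluidigm C1, and bulk samples were not analysed here. The authors aligned reads to mm10 with Bowtie2, removed duplicates with Picard and called peaks on bulk replicates with HOMER, per the labels and the methods, with versions not given in the sources used here. They deposited raw counts per region and cell, without normalization, in which no value is above 2 and how higher values were treated is not stated. Of the values above 0 in these regions, 52.2% were 2, and whether a 2 stands for both ends of 1 fragment or for 2 or more reads is not known, so summed counts need not be independent fragments. The alternative that counts each cell as detected or not does not depend on this. It called 0 of all regions, so its 0 of 32 says nothing of these, and 16 genes lower and 19 higher, with 0 of the 9 among them.

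Counts were summed per C1 run (164357, 92639, 122586 and 142611 counts) and, for gene tests, over regions. All 20103 regions and 9894 genes were tested with edgeR 4.0.16 (R 4.3.3) by quasi-likelihood with TMM normalization and Benjamini-Hochberg adjustment at 0.05. The common biological coefficient of variation was 0.419 over regions and 0.329 over genes. Standard errors (SE) were the absolute log2 change over the square root of the quasi-likelihood F, and not an output of the fit. DESeq2 1.42.0 was an alternative. An exact permutation test of 2 against 2 runs could not go below p = 0.333 and was not used. Regions were assigned by midpoint to the 5′ end of gene records. Thinned shares are expected values at 837 counts per cell, the 10th percentile. Shares have exact 95% binomial intervals (SciPy 1.17.1), and a count of 0 allows 3 counts. Sequences were read from GRCm38, with coordinates taken as counted from 1, and copies counted with BLAST 2.17.0.

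The genes named are the 9 members with all their regions, the 5 most often detected genes of each list, and the 3 regions most like the most often detected one. Genes at an unadjusted p under 0.05 in a list, and marker genes, were also named, after their values were seen. Members and lists were chosen with earlier results of these data known. Doublets were not called. Alternatives were other size factors, filters, detection only, a replicate block, each run left out, transcript starts and a 10 kb limit.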

Additional observations from a re-analysis of the deposited data

How the results depend on the processing

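The count of called regions among the 32 stayed at 0 under each alternative run, and that of the 9 genes at 0 under each with all 4 runs, while calls over all regions went from 3 lower and 8 higher to 0 and 0 (DESeq2), 12 and 21 (run totals) and 341 and 456 (without 24-hour run 1). A fit of all 4 runs with a replicate block (first against second run of each time-point, a shared number and not a known pairing) called 0 member regions and 0 member genes. Over all genes the block fit called 7 lower and 5 higher, against 27 and 26 without the block. The deviations of same-numbered runs from their time-point means correlated at -0.02 over regions, and the labels do not say that they belong together. With runs left out, in which the lone run is assumed to vary like the others, member genes called lower ranged from 0 to 1, the 1 being Inpp5d without 24-hour run 1, where 261 genes were called lower and 269 higher in all.

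Counts of regions with both 0-hour runs above both 24-hour runs (13 of 32) became 20 of 43 with transcript starts (33.7% of all regions) and 1 of 5 among regions in at least 10% of cells (23.7% of all such regions), and 16 to 23 with a run left out (39.3% to 63.1% of all regions). Counts in the other direction (2) became 4 after thinning (17.4%), 4 on normalized CPM (19.3%) and 0 of 5 in at least 10% of cells (11.7% of all such regions), and 2 to 6 with a run left out (11.9% to 31.3%). For genes with the 24-hour runs above (1), thinning gave 2 (21.9% of all genes) and leaving out a run 1 to 3 (11.9% to 38.9%). The sets with transcript starts and in at least 10% of cells hold another number of regions. For the other changes the cause was not tested.

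Of 224 log2 changes of regions nearest a start and of gene sums, 14 changed sign, none of them past the threshold in either fit. With the number of cells as offset, which moved the median of all regions to -0.51 and of all genes to -0.33, Foxo3 became -0.0058 at its start and -0.061 in sum and Pik3ip1 -0.23 in sum. With a run left out, the region nearest the start lay between -1.13 and 1.32 for Foxo4, -2.05 and 0.27 for Foxp1, -0.22 and 1.04 for Pik3cd and -0.74 and 0.14 for Pik3r1. The gene sums lay between -0.23 and 0.70 for Foxo3, -1.28 and 1.24 for Foxo4 and -0.026 and 0.28 for Pik3ip1. These regions had 11 to 31 cells with signal, and a single run decided their direction.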
